A study of Rattus norvegicus with 43 samples.

Results

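Expression in A7r5 cells kept in folate-sufficient medium was compared between day 14 and day 7 of culture. A7r5 is an established line of rat aortic smooth muscle. The comparison used 10 of the study's 43 arrays, namely every array labelled with folic acid at 10 ng/ml and either 7 days (5 arrays) or 14 days (5 arrays). The 10 arrays were thus of the same line, medium and folic acid dose, and the labels name no genetic change and no agent other than folic acid in custom DMEM. The other arrays came from cells at 10 ng/ml after 21 days (5 arrays), and from a deficient dose of 2.5 ng/ml or an excess dose of 100 ng/ml at the same days. They served for the spread estimate of the model and for the differences given at the end. RNA was extracted with Trizol, treated with DNase and hybridised to Affymetrix rat arrays, whose probe sets read mainly the 3' ends of transcripts. The p-values reflect the spread between arrays within groups, pooled over all 43 arrays. The labels do not say whether the replicates were separate cultures, so that spread may be technical.

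Smooth muscle cells of the artery wall can divide and secrete matrix, or withdraw from the cell cycle and express contractile proteins, and cultured lines move along this range as they become dense. Dividing cells need folate, because one-carbon units carried by it are used to make purines and thymidylate. Genes of DNA synthesis are switched on mainly by E2F factors at the start of S phase, and genes of mitosis by the MuvB complex with B-Myb and FoxM1 in G2. A7r5 cells come from embryonic aorta and are known to carry skeletal muscle transcripts beside smooth muscle ones.

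The days were the main source of variation among the 10 arrays. The first principal component of their values held 59.9% of the variance and separated day 7 from day 14, and the second held 19.9%. On the second component 3 arrays stood apart, namely day 7 replicate 6 and day 14 replicates 4 and 5. Their titles carry the serial numbers 46, 49 and 22, and the serial 22 is on 3 arrays. The gene most tied to this component was Tgfb1, which encodes a growth factor that drives matrix production. Its log2 values at day 7 were 7.84, 7.63, 7.73 and 7.56, against 5.58 in replicate 6, and at day 14 they were 8.86, 8.72 and 8.67, against 5.98 and 6.20 in replicates 4 and 5. Its change of 0.42 had an adjusted p of 0.54 in limma, and it was 1.06 with the 3 arrays left out (adjusted p = 0.072). With the 3 arrays as a covariate among the groups compared it was 0.90 (adjusted p = 5e-05). That covariate was set from the component to which Tgfb1 is most tied, so this last p is no test. All 4057 genes that passed the threshold below kept their sign when the 3 arrays were left out, while 737 of them no longer passed. The difference between the 3' and 5' probe sets of beta-actin grows when RNA is broken. It was 1.50 to 2.38 log2 units at day 7 and 1.43 to 1.82 at day 14. The 3 arrays that stood apart had the lowest values of the 10 (1.504, 1.432 and 1.536), beside 1.704 or more in the others. For Gapdh they were also lowest (0.104, 0.097 and 0.207), beside 0.291 or more. Whether the second component follows these differences was not tested. Fits were run with the beta-actin difference as a covariate, and without the 2 day 7 arrays where it was highest. Its part in the results was not tested further.

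**Figure D1:**
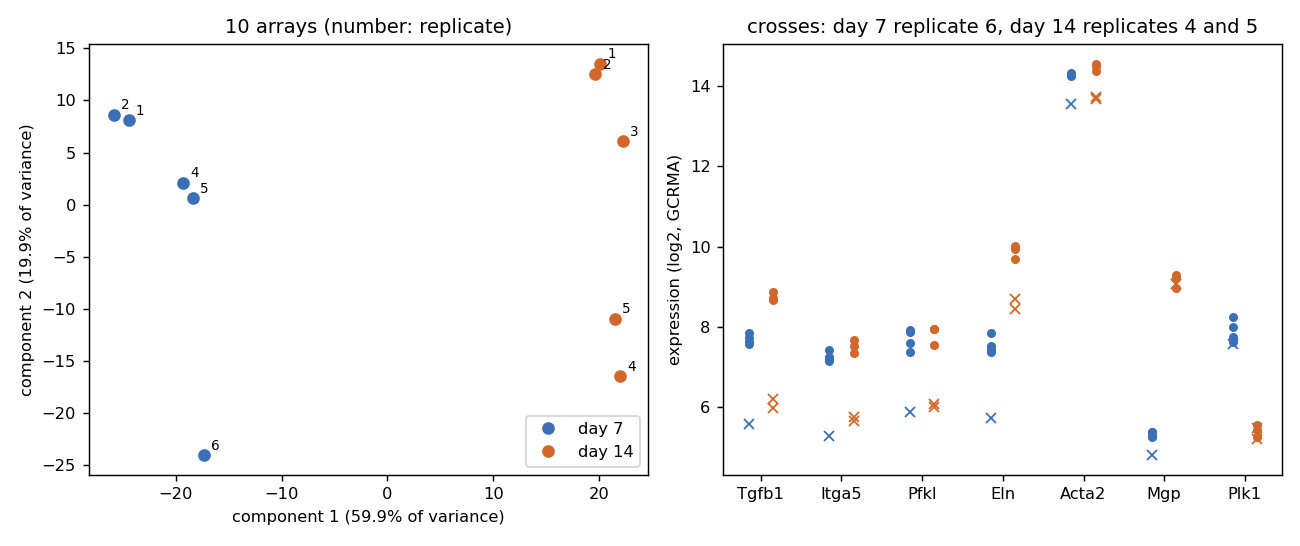
Left, the 10 arrays on the first 2 principal components, with replicate numbers beside the points and the share of variance on each axis. Right, log2 expression of 7 genes in each array, with crosses for day 7 replicate 6 and day 14 replicates 4 and 5. The crosses lie below the other arrays of their day for Tgfb1, Itga5, Pfkl, Eln and Acta2, while for Mgp and Plk1 the days are far apart in all arrays.

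Of 9093 genes tested, 4057 (44.6%) passed an adjusted p of 0.05 between day 14 and day 7, with 1809 (19.9%) higher and 2248 (24.7%) lower at day 14. The values of the 5 and 5 arrays did not overlap for 2541 genes (27.9%). A change of at least 2-fold was found for 364 genes (4.00%), of which 100 were higher and 264 lower, and 18 rose and 17 fell at least 4-fold. The median of all genes was -0.03 log2, and the split depended on the scaling. Quantile normalization gave 2139 higher and 1919 lower genes, and centring each array on its median gave 2717 and 1536. With the arrays of serials up to 45 alone the split was 1639 and 2361, and with the 3 arrays left out 1465 and 2096. Small changes are therefore read here against the median of all genes.

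The highest fold change was that of Mgp, which encodes matrix Gla protein, an inhibitor of calcification in artery walls. Its log2 values were 5.25, 5.38, 5.37, 5.27 and 4.80 at day 7 and 8.98, 9.25, 9.30, 9.07 and 9.06 at day 14. Each day 14 array was thus over 3 log2 units above each day 7 array, and the change was 3.92 ± 0.13 (SE), or 15.1-fold (limma, adjusted p = 4.7e-25). S1pr1, the receptor of sphingosine 1-phosphate that couples to Gi, had 6.55, 6.76, 6.75, 6.86 and 7.36 at day 7 and 9.86, 9.97, 10.02, 10.17 and 10.00 at day 14. The groups did not overlap, and S1pr1 rose by 3.15 ± 0.12, or 8.86-fold. Below these came 4 genes of striated muscle (Myl1, Myl4, Myom2 and Tnnt1), described with the muscle genes. Scg2, a protein of secretory granules, had 6.57, 6.68, 6.54, 6.54 and 6.45 at day 7 and 8.96, 9.03, 8.93, 9.25 and 9.11 at day 14. Its 2.50 ± 0.10 rise separated the days completely. Ptgds, which makes prostaglandin D2, rose by 2.53 ± 0.12. Mgst3, a microsomal glutathione transferase, rose by 2.44 ± 0.10 and Art3, an ADP-ribosyltransferase family member, by 2.40 ± 0.14. The day 7 values of Art3 were 3.45 to 3.94, close to background.

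**Figure D2:**
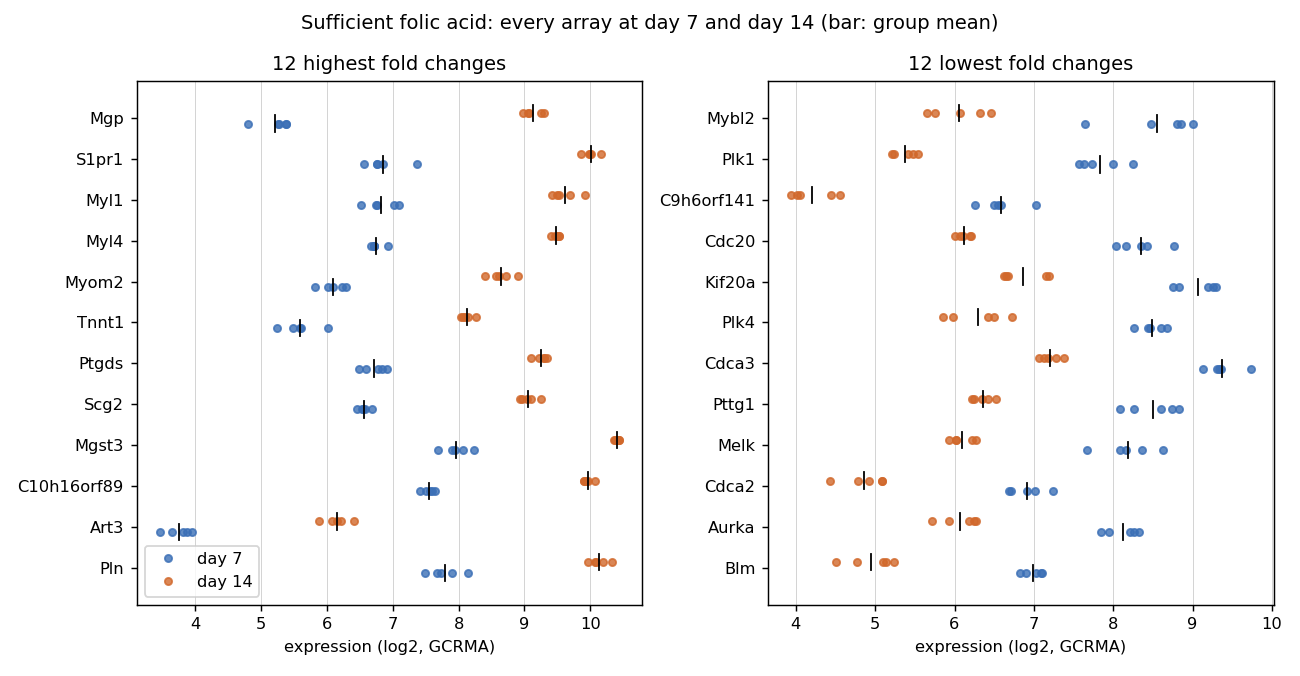
Log2 expression in every array of the 12 genes with the highest and the 12 with the lowest fold changes, among genes past the threshold whose arrays did not overlap and whose higher mean was at least 6. Points are arrays (5 and 5), bars are group means. Mgp moved from about 5.21 to 9.13 in the mean, and Plk1 from 7.84 to 5.38.

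Genes of mitosis fell as a group. Of 40 listed, 35 were on the array and passed the filter on low values, and all 35 were lower at day 14, beside 24.7% of all genes, with a median of -1.87 against -0.03. 34 of the 35 fell at least 2-fold, and the smallest change was -0.85. In bulk RNA such as this, fewer dividing cells and less RNA of these genes per cell cannot be told apart. Plk1, the kinase that drives entry into and passage through mitosis, had values from 7.57 to 8.25 (median 7.74) in the 5 arrays of day 7 and 5.54, 5.42, 5.24, 5.21 and 5.48 at day 14. The lowest day 7 array lay over 2 log2 units above the highest of day 14, and Plk1 fell by 2.46 ± 0.11, a 5.51-fold lower level (adjusted p = 6.6e-21). Cdc20, which activates the anaphase-promoting complex, went from 8.35, 8.77, 8.16, 8.04 and 8.42 to 6.21, 6.01, 6.07, 6.10 and 6.19. It fell by 2.23 ± 0.13 without overlap.

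Other genes of division fell too. Kif20a, a kinesin of the central spindle, fell by 2.21 ± 0.17, and its day 14 arrays formed a low set (6.65, 6.63 and 6.67) and a higher one (7.16 and 7.19). Cdca3, which targets Wee1 for degradation, fell by 2.16 ± 0.13. Pttg1, or securin, which holds separase inactive until anaphase, had 8.74, 8.82, 8.27, 8.09 and 8.60 at day 7 and 6.24, 6.53, 6.22, 6.35 and 6.42 at day 14. It fell by 2.15 ± 0.13, again with no overlap. Aurka, the centrosomal Aurora kinase, fell by 2.05 ± 0.12. Among leading genes outside the list, Plk4, which starts centriole duplication, fell by 2.19 ± 0.16 and Melk, a kinase of dividing cells, by 2.09 ± 0.13. Cdca2, which brings a phosphatase to chromatin as mitosis ends, fell by 2.06 ± 0.15. C9h6orf141, an open reading frame of unstated role, had 6.26 to 7.02 at day 7 and 3.94 to 4.56 at day 14, near background.

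Genes of DNA replication fell with them. Of 37 on the array 36 passed the filter and 35 fell (97.2%, beside 24.7% of all genes), with a median of -1.19. The member that did not pass the threshold was Pola2, at -0.18. All 6 subunits of the replicative helicase, Mcm2 to Mcm7, fell, by 1.00 to 1.86 log2, and so did the 5 genes of the sliding clamp and its loader, Pcna and Rfc2 to Rfc5. These subunits were grouped after their values were seen. Mcm5 had 8.63, 8.60, 8.39, 8.47 and 7.88 at day 7 and 6.90, 6.77, 6.40, 6.33 and 6.26 at day 14. The lowest day 7 array was still about 1 log2 unit above the highest of day 14, and the change was -1.86 ± 0.15 (adjusted p = 1.7e-13). Orc1, the largest subunit of the origin recognition complex, fell by 2.00 ± 0.23, from 6.18 to 6.82 down to 4.04 to 4.61. Pole, the catalytic subunit of the leading-strand polymerase, fell by 1.75 ± 0.13, and Chaf1a, which loads histones onto new DNA, fell by 1.73 ± 0.11. The values of Chaf1a were 8.15, 8.16, 7.96, 7.75 and 7.74 at day 7 and 6.23, 6.22, 6.22, 6.29 and 6.12 at day 14.

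Regulators of the step from G1 to S phase mostly fell. Of 19 measured, 12 fell (63.2%, beside 24.7% of all genes), with a median of -0.50. The 5 that rose made up 26.3%, near the 19.9% of all genes. Mybl2, which encodes B-Myb of the complex that switches on mitosis genes, had the lowest change of all genes tested. Its values were 8.80, 9.00, 8.85, 8.47 and 7.64 at day 7 and 6.46, 6.32, 6.07, 5.66 and 5.76 at day 14. Day 7 replicate 6 was the lowest of its group and yet above every day 14 array, and Mybl2 fell by 2.50 ± 0.17 (adjusted p = 5.4e-15). Foxm1, its partner in activating mitosis genes, fell by 1.66 ± 0.14. E2f7 and E2f8, the repressor members of the E2F family, fell by 1.66 ± 0.11 and 1.64 ± 0.15. Myc, a growth factor-induced activator of cell growth genes, fell by 1.11 ± 0.13. The 3 D-type cyclins, which pair with Cdk4 and Cdk6 in G1, rose by 0.17 (Ccnd1), 0.27 (Ccnd2) and 0.41 (Ccnd3). The pocket proteins Rb1 and Rbl2 rose by 0.20 and 0.53. Both groups were picked out after their values were seen. These small rises were fragile: leaving out single arrays ended the call of Ccnd1 for 8 of the 10 arrays, of Ccnd2 for 7, of Ccnd3 for 4 and of Rb1 for 5. Day 14 replicate 3 was among them for each of the 4, with values of 0.17, 0.27, 0.37 and 0.19 without it. Under quantile normalization 3 members of the list rose and 13 fell.

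DNA repair genes fell in 17 of 19 cases, beside 24.7% of all genes, with none higher and a median of -0.59. Under quantile normalization and under median centring 14 of them fell. Blm, the Bloom helicase, fell by 2.04 ± 0.15, with no overlap, its day 14 arrays lying between 4.51 and 5.23. Fancd2 of the crosslink repair pathway fell by 1.70 ± 0.09 and Exo1, an exonuclease of mismatch repair, by 1.65 ± 0.16. Among DNA and histone methylation genes, 9 of 20 fell (45%) and 3 rose (15%), beside 24.7% and 19.9% of all genes. The lowest were Ezh2, the methyltransferase of Polycomb repression, which fell by 1.58 ± 0.08, Uhrf1, which guides the maintenance methyltransferase, by 1.46 ± 0.13, and Dnmt1 itself by 1.25 ± 0.14. Dnmt1 had 8.31, 8.68, 8.23, 8.26 and 7.92 at day 7 and 7.03, 6.92, 7.25, 7.25 and 6.71 at day 14, with no overlap. Hells, a remodeller that acts in DNA methylation, fell by 1.13 ± 0.10.

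Since these genes fell together, some of their promoters are shown as examples. RefSeq promoters of the GRCr8 assembly were matched by symbol for 31 of the 35 mitosis genes and 33 of the 36 replication genes, as windows of 250 bases before to 50 after the annotated start. The stretches below run from 150 bases before to 30 after the start, 5′ to 3′ on the gene's strand. Capitals mark, on either strand, CCAAT (bound by NF-Y), TTTGAA or TTCGAA (the cell cycle homology region bound by MuvB) and GCGGGAA or TTGGCGC (E2F sites). Each was also looked for as its reverse complement, and CCAAT read on the opposite strand can overlap an E2F site. The first 3 genes belong to mitosis and the other 2 to replication. Not every promoter of these lists held the same sites, and the shares over each list are given after the stretches.
Plk1: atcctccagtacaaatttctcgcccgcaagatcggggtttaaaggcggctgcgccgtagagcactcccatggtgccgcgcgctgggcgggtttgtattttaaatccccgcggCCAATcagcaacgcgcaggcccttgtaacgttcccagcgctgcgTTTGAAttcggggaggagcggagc
Cdc20: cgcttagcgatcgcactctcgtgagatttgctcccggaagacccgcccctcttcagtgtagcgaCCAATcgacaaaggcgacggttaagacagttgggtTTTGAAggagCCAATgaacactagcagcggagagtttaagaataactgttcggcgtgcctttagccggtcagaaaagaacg
Pttg1: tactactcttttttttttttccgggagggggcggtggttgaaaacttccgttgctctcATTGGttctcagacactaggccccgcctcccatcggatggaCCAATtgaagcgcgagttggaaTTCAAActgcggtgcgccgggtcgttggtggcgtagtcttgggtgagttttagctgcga
Mcm5: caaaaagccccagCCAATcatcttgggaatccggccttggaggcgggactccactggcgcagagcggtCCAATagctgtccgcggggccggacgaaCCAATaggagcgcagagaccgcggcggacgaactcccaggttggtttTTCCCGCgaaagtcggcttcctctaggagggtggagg
Chaf1a: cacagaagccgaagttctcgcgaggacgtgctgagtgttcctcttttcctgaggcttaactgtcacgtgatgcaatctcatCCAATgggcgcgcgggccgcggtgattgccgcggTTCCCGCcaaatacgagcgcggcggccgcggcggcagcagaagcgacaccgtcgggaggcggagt

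Plk1 (chr1:186147508-186147687, plus strand), Cdc20 (chr5:137255770-137255949, minus strand) and Pttg1 (chr10:28406297-28406476, minus strand) each held at least 1 CCAAT and 1 TTTGAA within these stretches, and no E2F site. Mcm5 (chr19:13488663-13488842, plus strand) held 3 CCAAT and Chaf1a (chr9:961075-961254, plus strand) 1, and each held 1 E2F site and no TTTGAA or TTCGAA. Over whole windows, 25 of 31 mitosis promoters (80.6%) held CCAAT, beside 38.7% of the 7714 promoters of genes tested. TTTGAA or TTCGAA was in 22 of the 31 (71%) beside 13.4%. Replication promoters also held CCAAT more often than the promoters of all genes tested, in 20 of 33 (60.6%), and TTTGAA or TTCGAA in 18.2%. GCGGGAA or TTGGCGC was in 18 of the 33 (54.5%) beside 13.2%, while the share in mitosis promoters was 12.9%. The differences between these shares were not tested. In all 27457 promoters of the table the shares were 37.7% for CCAAT, 19.5% for TTTGAA or TTCGAA and 6.67% for the E2F letters. A match is a description of letters in the window and shows no binding.

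Targets of p53, which include brakes on division, moved less. Of 12 measured, 5 rose (41.7%, beside 19.9% of all genes) and none fell, with a median of 0.15. The best known of them, Cdkn1a, the p21 inhibitor of cyclin-dependent kinases, was at -0.25 without passing. Tp53inp1, a stress-induced p53 cofactor, rose by 0.64 ± 0.17 from a level near background. Fas, the death receptor, rose by 0.58 ± 0.12 and Bbc3, a BH3-only killer protein, by 0.37 ± 0.09. Without the 3 arrays that stood apart Bbc3 was at 0.24 (adjusted p = 0.052), and Tp53inp1 was at 0.47 (adjusted p = 0.054) without the 2 day 7 arrays of highest beta-actin difference. Mdm2, the ligase that degrades p53, had 10.83, 10.74, 11.03, 11.09 and 11.37 at day 7 and 11.32, 11.32, 11.50, 11.74 and 11.67 at day 14. These groups overlapped through day 7 replicate 6, and the rise was 0.50 ± 0.11. Among 8 measured senescence genes, Lmnb1, a nuclear lamina protein, fell by 1.38 ± 0.22, while Igfbp5, Igfbp7 and Glb1 rose by 0.59, 0.56 and 0.49.

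**Figure D3:**
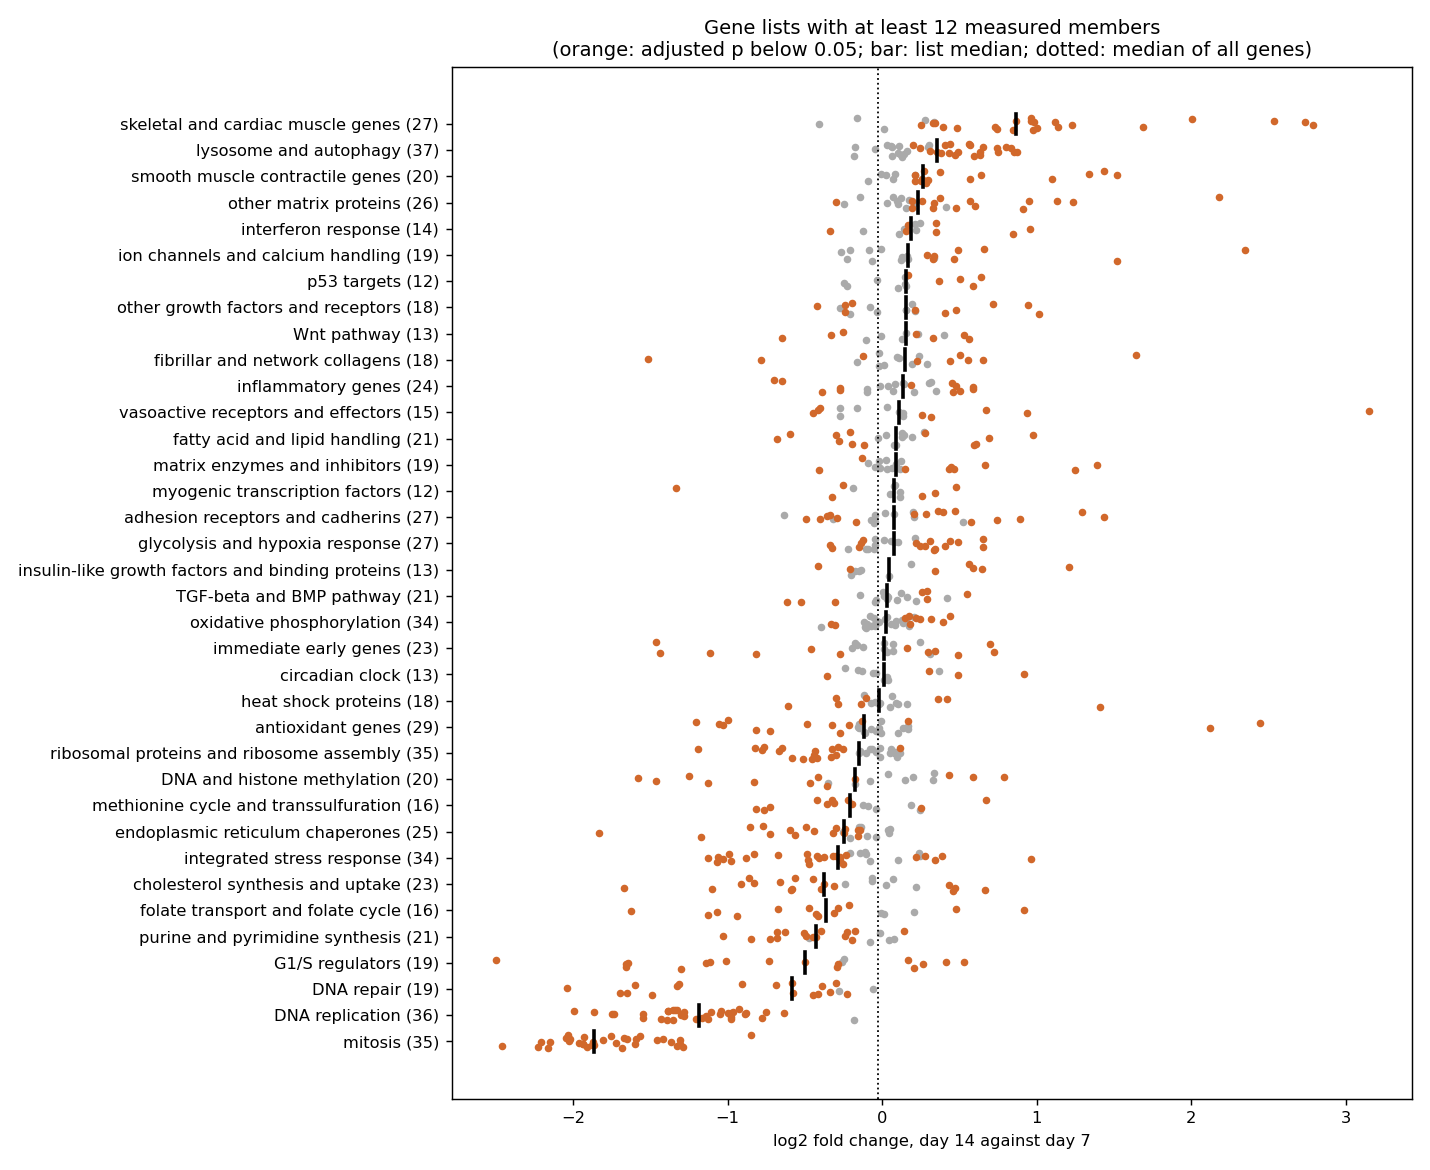
Log2 fold change of day 14 against day 7 for every measured member of each list with at least 12 such members, with the number of members in brackets. Orange points passed the threshold, grey ones did not, bars are list medians and the dotted line is the median of all genes (-0.03). Mitosis (median -1.87) and DNA replication (-1.19) lie lowest, skeletal and cardiac muscle genes (0.86) highest.

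Smooth muscle contractile genes rose in 14 of 20 measured cases and fell in none, with a median of 0.26, beside 19.9% of all genes higher. The defining markers did not move alike. Acta2, or smooth muscle actin, had 14.30, 14.29, 14.26, 14.34 and 13.56 at day 7 and 14.57, 14.51, 14.37, 13.74 and 13.68 at day 14. The 3 arrays that stood apart were the lowest and the groups overlapped, and the change was 0.02 ± 0.17 (adjusted p = 0.92). With those arrays left out it was 0.19 (adjusted p = 0.38). With them as a covariate, which was set from these same data, it was 0.18 (adjusted p = 0.025). Tagln, or SM22, rose by 0.26 ± 0.05 and Cnn1, or calponin, by 0.25 ± 0.05. With the replicate block and only the groups compared both calls were lost (0.21 and 0.22, adjusted p = 0.07 and 0.063). Myocd, the coactivator of smooth muscle genes, was at 0.08 ± 0.11 and did not pass. Myh11, the smooth muscle myosin heavy chain and the marker most tied to mature cells, had 5.25, 5.34, 5.51, 5.52 and 5.64 at day 7 and 6.97, 6.56, 6.87, 6.84 and 6.72 at day 14. It rose by 1.34 ± 0.11 with no overlap (adjusted p = 2.5e-13).

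Kcnmb1, the beta subunit that raises the calcium sensitivity of the BK potassium channel, had 4.25, 4.09, 4.21, 4.23 and 4.42 at day 7 and 5.92, 5.87, 5.60, 5.96 and 5.46 at day 14. The rise was 1.52 ± 0.15, or 2.87-fold, from a level near background. Itga8, the alpha 8 integrin of vascular smooth muscle, rose by 1.43 ± 0.12. Mylk, the kinase that phosphorylates myosin light chain and so starts contraction, had 10.38, 10.41, 10.25, 10.31 and 10.38 at day 7 and 11.59, 11.44, 11.36, 11.62 and 11.19 at day 14. It rose by 1.10 ± 0.07 and the groups were clearly apart.

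Genes of skeletal and cardiac muscle formed the list with the highest median, 0.86. Of 43 on the array 27 passed the filter on low values. Among those 22 rose (81.5%, beside 19.9% of all genes) and none fell. The other 16 stayed near background, including Myh7, Tnni2 and Neb, so the set was a partial one. Myl1, a fast skeletal light chain, had 6.74, 7.09, 6.76, 6.52 and 7.02 at day 7 and 9.52, 9.50, 9.42, 9.92 and 9.69 at day 14. Myl4, the light chain of atrial and embryonic muscle, had 6.71, 6.71, 6.67, 6.93 and 6.71 and then 9.53, 9.53, 9.47, 9.40 and 9.49. Both rose without overlap, by 2.79 ± 0.12 and 2.74 ± 0.09. Tnnt1, slow skeletal troponin T, went from 5.49, 6.01, 5.59, 5.61 and 5.23 to 8.10, 8.07, 8.14, 8.04 and 8.26, a rise of 2.54 ± 0.15.

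Outside the list, Myom2, an M-band protein of fast fibres, rose by 2.55 ± 0.12, with 5.82 to 6.28 at day 7 and 8.40 to 8.90 at day 14. Within the list, Myh3, the embryonic myosin heavy chain, rose by 2.00 ± 0.12 from a level near background, 4.09 to 4.41. Pln, or phospholamban, of the ion channel and calcium handling list, restrains the calcium pump of cardiac and smooth muscle. It rose by 2.35 ± 0.13, from 7.49 to 8.15 up to 9.97 to 10.33. Of 12 myogenic transcription factors 3 were higher and 3 lower (25% each), near the 19.9% and 24.7% of all genes. Myod1, the master factor of skeletal muscle, had 5.02, 4.96, 4.13, 4.15 and 4.30 at day 7 and 2.98, 3.12, 3.12, 3.45 and 3.22 at day 14. It fell by 1.33 ± 0.17 to background while the sarcomere genes above rose. Mef2a, a factor of muscle and other tissues, rose by 0.48 ± 0.06, and Mef2d by 0.34 ± 0.12, a call that was lost without day 7 replicate 6 (0.26, adjusted p = 0.066) and without day 14 replicate 2 (0.29, adjusted p = 0.053). Nkx2-5, a cardiac factor, fell by 0.33 ± 0.09, with overlapping groups, and was at -0.24 (adjusted p = 0.057) without the 2 day 7 arrays of highest beta-actin difference. Id1, a blocker of helix-loop-helix factors, fell by 0.36 ± 0.10 and Atoh8 by 0.46 ± 0.11.

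Matrix genes rose in part. Of 26 matrix proteins other than collagens, 14 rose (53.8%) and 1 fell (3.85%), beside 19.9% and 24.7% of all genes, with a median of 0.23. Eln, or tropoelastin, had 7.51, 7.38, 7.46, 7.84 and 5.72 at day 7 and 9.94, 10.03, 9.68, 8.45 and 8.71 at day 14. The values of both days were lower in the 3 arrays that stood apart, and the change was 2.18 ± 0.35 with no overlap (adjusted p = 2.5e-06), or 1.23 when the probe sets of Eln were averaged. Emilin1, which links elastin to its microfibrils, rose by 1.24 ± 0.13, and Prelp, a small leucine-rich proteoglycan, by 1.13 ± 0.16. Postn, or periostin, a matricellular protein already strong at day 7, had 13.20, 13.13, 13.20, 13.28 and 13.30 and then 14.13, 14.21, 14.21, 14.14 and 14.18. All day 14 arrays lay above all day 7 arrays, and Postn rose by 0.95 with an SE of 0.04. The member that fell was Vcan, or versican, a proteoglycan of loose matrix, at -0.30. Its call was lost with median centring (-0.20, adjusted p = 0.086), with the replicate block in only the groups compared (-0.23, adjusted p = 0.074) and without the 3 arrays that stood apart (-0.26, adjusted p = 0.057).

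Collagen genes split, with 6 of 18 higher (33.3%) and 3 lower (16.7%), beside 19.9% and 24.7% of all genes. Col6a3, a chain of beaded microfibrils, had 7.61, 7.57, 7.16, 6.90 and 7.27 at day 7 and 9.04, 9.59, 8.90, 8.50 and 8.67 at day 14. It rose by 1.64 ± 0.19. Col14a1, a collagen bound to fibril surfaces, fell by 1.51 ± 0.12, from 4.16 to 4.78 down to 2.87 to 3.02, which is background. Col11a1 rose by 0.65 ± 0.15, Col3a1 by 0.44 ± 0.11, and Col5a3 fell by 0.78 ± 0.16 with overlapping groups. The call of Col3a1 was lost with the replicate block and only the groups compared (0.35, adjusted p = 0.083). The main fibrillar chains Col1a1 and Col1a2 stood at -0.02 and 0.09 and did not pass. Among 19 matrix enzymes and inhibitors 7 rose and 2 fell. Mmp2, a gelatinase, rose by 1.39 ± 0.15 but lay below 4 at day 7 (2.77 to 3.18), and Serpine2, a protease inhibitor, rose by 1.25 ± 0.10.

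Calcification genes were few. Of 20 on the array 7 passed the filter, and 5 rose and 1 fell, with Mgp far above the rest. The shares were 71.4% and 14.3%, beside 19.9% and 24.7% of all genes. Gas6, a vitamin K-dependent ligand like Mgp in needing gamma-carboxylation, had 11.92, 11.78, 11.87, 11.81 and 11.99 at day 7 and 12.54, 12.56, 12.51, 12.67 and 12.43 at day 14. It rose by 0.67 ± 0.08, although 1 of the 3 probe sets for it went the other way. The phosphate carriers went opposite ways, Slc20a2 up by 0.58 ± 0.07 and Slc20a1 down by 0.53 ± 0.08, each with no overlap. Alpl, Bglap and Ibsp, which mark bone-forming cells, did not pass the filter.

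Among 15 measured vasoactive receptors and effectors 5 rose (33.3%) and 3 fell (20%). S1pr3, the sphingosine 1-phosphate receptor that couples to Gq, rose by 0.93 ± 0.08 beside S1pr1, with 5.61 to 5.86 at day 7 and 6.50 to 6.79 at day 14. P2ry6, a receptor of extracellular UDP, rose by 0.67 ± 0.11. Edn1, which encodes endothelin-1, fell by 0.45 ± 0.17 with an adjusted p of 0.029. This call was lost in 9 of 26 other settings, among them quantile normalization, median centring and the fit without the 3 arrays that stood apart. It was also lost without day 7 replicate 5 or 6 or day 14 replicate 2 or 3 (-0.38, -0.34, -0.37 and -0.39, with adjusted p from 0.077 to 0.11). Of 19 ion channel and calcium handling genes 8 rose (42.1% beside 19.9% of all genes) and none fell, with a median of 0.16. The L-type calcium channel genes Cacna1c and Cacna2d1 rose by 0.49 ± 0.12 and 0.66 ± 0.19. Fgf1, a growth factor without a signal peptide, rose by 1.01 ± 0.08, from 8.34 to 8.70 up to 9.39 to 9.68.

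In the platelet-derived growth factor family the receptor gene Pdgfrb rose by 0.71 ± 0.12, with 1 of 3 probe sets of opposite sign. Its ligand relative Pdgfc had 6.03, 5.36, 6.94, 7.11 and 7.00 at day 7 and 7.45, 7.32, 7.70, 7.49 and 7.20 at day 14. The day 7 arrays fell into a low pair and a higher trio, the pair being those with the largest beta-actin difference, and the rise of 0.94 ± 0.28 became 0.41 (adjusted p = 0.26) without that pair. Of 21 TGF-beta and BMP genes 4 rose (19%) and 3 fell (14.3%), at or below the shares of all genes. Bmpr1a, a BMP receptor, rose by 0.55 ± 0.12. Fst, or follistatin, and Inhba, the activin subunit it binds, fell by 0.53 ± 0.09 and 0.31 ± 0.07. Smad7, the inhibitor of the pathway, was at -0.61 ± 0.25 with an adjusted p of 0.045, and this call was lost in 17 of 27 other settings, among them each that left out 1 array except day 7 replicate 6 and day 14 replicates 1 and 2. Igf2 rose by 1.21 ± 0.21 from a level below 4, and Igfbp2 by 0.64 ± 0.09.

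Folate genes mostly fell. Of 16 measured genes of folate transport and the folate cycle 11 fell and 2 rose, with a median of -0.37. The shares were 68.8% and 12.5%, beside 24.7% and 19.9% of all genes. The 3 largest falls were those of enzymes of the mitochondrial branch, which makes formate from serine, and the 4 measured enzymes of that branch, grouped after their values were seen, had changes from -1.63 to -0.47 and all 4 passed. Mthfd1l, its last enzyme, had 6.75, 6.68, 6.38, 6.64 and 6.30 at day 7 and 5.17, 4.97, 4.59, 4.86 and 5.03 at day 14, a change of -1.63 ± 0.15. Shmt2, the serine hydroxymethyltransferase of the mitochondrion, fell by 1.13 ± 0.13, from 9.08 to 9.71 down to 7.99 to 8.60. Mthfd2, the dehydrogenase and cyclohydrolase between them, had 9.29, 9.06, 8.88, 8.90 and 9.20 and then 7.89, 7.81, 7.72, 8.64 and 7.93. Day 14 replicate 4 was high but still below every day 7 array, and the change was -1.07 ± 0.14.

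Falls were also seen in the cytosol and nucleus. Mthfd1, which carries the same reactions in the cytosol, fell by 0.94 ± 0.07, from 9.97 to 10.03 down to 8.93 to 9.21. Tyms, or thymidylate synthase, fell by 0.68 ± 0.14. Slc19a1, the reduced folate carrier, was at -0.31 ± 0.11 with overlapping groups, and its call was lost without day 7 replicate 1 (-0.24, adjusted p = 0.077) or day 14 replicate 5 (-0.23, adjusted p = 0.084). Folr1, the high-affinity folate receptor, had 3.53 to 4.03 at day 7 and 3.82 to 4.46 at day 14, near background, and rose by 0.48 ± 0.11. Aldh1l1, which oxidises formyl-folate and so removes one-carbon units, rose by 0.92.

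Nucleotide synthesis followed. Of 21 purine and pyrimidine genes 15 fell (71.4%) and 1 rose (4.76%), beside 24.7% and 19.9% of all genes, with a median of -0.43. Adk, or adenosine kinase, fell by 1.03 ± 0.13, Pfas by 0.85 ± 0.10 and Gart by 0.72 ± 0.10. Gart uses formyl-folate, and Pfas acts just after its first folate step. Umps, the last enzyme of UMP synthesis, fell by 0.68 ± 0.07, from 9.78 to 10.12 down to 9.19 to 9.37. In the methionine cycle and transsulfuration 9 of 16 fell (56.2%) and 2 rose (12.5%). The falls were led by Gclc and Gclm, the subunits of the glutathione-forming ligase (0.82 ± 0.13 and 0.73 ± 0.09), and Srm, or spermidine synthase (0.77 ± 0.12). Sat1, which acetylates polyamines for export, rose by 0.67 ± 0.06.

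Genes of the integrated stress response, many of them targets of Atf4, fell in 21 of 34 cases and rose in 5, with a median of -0.29. The shares were 61.8% and 14.7%, beside 24.7% and 19.9% of all genes. Atf4 itself was at -0.14 and did not pass. The 3 genes of serine synthesis, Phgdh, Psat1 and Psph, fell by 0.83, 0.88 and 0.99, and all 8 aminoacyl-tRNA synthetases on the list fell, by 0.27 to 0.49, both groups being picked out after their values were seen. Slc7a1, a carrier of cationic amino acids, fell by 1.06 ± 0.09, from 9.00 to 9.30 down to 8.01 to 8.17. Slc7a11, the cystine carrier, fell by 1.03 ± 0.13. The highest member was Ddit4, an inhibitor of mTORC1, which rose by 0.96.

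Chaperones of the endoplasmic reticulum fell in 16 of 25 cases (64%, beside 24.7% of all genes) and rose in none, with a median of -0.25. Creld2, a secreted stress-induced protein, had 9.71, 9.74, 9.87, 9.65 and 10.08 at day 7 and 7.90, 7.87, 8.09, 8.20 and 7.81 at day 14. It fell by 1.83 ± 0.10, or 3.56-fold, and the lowest day 7 array was over 1 log2 unit above the highest of day 14. Sdf2l1, a cofactor of BiP, fell by 1.17 ± 0.10 and Dnajc3, another, by 0.77 ± 0.10, while BiP itself, Hspa5, fell by 0.44. Hyou1, a large chaperone, was at -0.86 ± 0.29 with overlapping groups. It was lower in the 3 arrays that stood apart, and without them its change was -0.58 with an adjusted p of 0.11. Leaving out day 14 replicate 4 or 5 alone also ended the call (-0.67 and -0.66, adjusted p = 0.065 and 0.071).

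Antioxidant genes showed 11 falls (37.9%) and 3 rises (10.3%) among 29, beside 24.7% and 19.9% of all genes, with a median of -0.12. The share that passed in either direction, 48.3%, was near the 44.6% of all genes. Nqo1, a quinone reductase and classic target of Nrf2, had 12.41, 12.45, 12.17, 12.22 and 12.14 at day 7 and 11.32, 11.31, 11.16, 11.18 and 11.14 at day 14. It fell by 1.06 ± 0.08, and Srxn1, or sulfiredoxin, by 1.20 ± 0.10. Mgst3 and Gsta4, glutathione transferases, went the other way, Gsta4 by 2.12 ± 0.12 from 5.41 to 6.11 up to 7.71 to 8.14. Of 18 heat shock genes 3 were higher and 5 lower (16.7% and 27.8%), close to the 19.9% and 24.7% of all genes. Hspb7, a small heat shock protein of muscle, rose by 1.41 ± 0.21, and Hsf1, the heat shock factor, fell by 0.61 ± 0.17 with overlapping groups. Without the 2 day 7 arrays of highest beta-actin difference Hsf1 was at -0.40 (adjusted p = 0.11).

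The ribosome list fell in 17 of 35 cases (48.6%) and rose in 1 (2.86%), beside 24.7% and 19.9% of all genes. The falls lay in its assembly factors. After the values were seen the list was divided into ribosomal proteins, of which 0 of 14 fell and 1 rose (median 0.06, range -0.08 to 0.12), and assembly and transcription factors, of which 17 of 21 fell (median -0.44). Gar1, of the particles that convert uridine to pseudouridine, fell by 1.19 ± 0.11. Fbl, or fibrillarin, the methyltransferase of ribosomal RNA, had 12.38, 12.40, 12.40, 12.45 and 12.34 at day 7 and 11.51, 11.50, 11.62, 11.57 and 11.68 at day 14. With an SE of 0.05 it fell by 0.82. Rrp12 and Bop1, factors of subunit maturation, fell by 0.78 ± 0.11 and 0.76 ± 0.15, the latter with overlapping groups.

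Sterol synthesis genes fell as well. Of 23 genes of cholesterol synthesis and uptake 13 fell (56.5%) and 4 rose (17.4%), beside 24.7% and 19.9% of all genes. Their median was -0.37. Among the 15 measured enzymes of the pathway, set apart after the values were seen, 11 fell and 0 rose. Idi1, an isomerase of the isoprenoid steps, had 8.39, 8.45, 8.16, 8.25 and 8.53 at day 7 and 6.61, 6.67, 6.69, 6.98 and 6.48 at day 14. It fell by 1.67 ± 0.09 with no overlap (adjusted p = 1.2e-17). Sqle, or squalene epoxidase, fell by 1.10 ± 0.12 and Srebf2, the transcription factor of the pathway, by 0.86 ± 0.14. The 4 that rose included Abca1 and Abcg1, which export cholesterol (0.46 and 0.67), and Npc2, which carries it out of lysosomes (0.43). Without the 3 arrays that stood apart Abca1 was at 0.31 (adjusted p = 0.13). Scd2, a desaturase of fatty acids, rose by 0.98 ± 0.09, and Lpl, or lipoprotein lipase, fell by 0.68 ± 0.11.

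Lysosome and autophagy genes rose in 22 of 37 cases (59.5%, beside 19.9% of all genes) and fell in none, with a median of 0.35. Ctsa, a protective carboxypeptidase, had 11.58, 11.55, 11.60, 11.55 and 11.53 at day 7 and 12.53, 12.46, 12.46, 12.36 and 12.28 at day 14. It rose by 0.85 ± 0.08, and 6 of 7 measured cathepsins rose, the other being Ctsz at -0.18. Gaa, the acid glucosidase that degrades glycogen, rose by 0.87 ± 0.15, and Neu1, a sialidase, by 0.80 ± 0.12. Tfeb, the transcription factor of lysosome genes, stood at -0.05 and did not pass, but its day 14 values (3.80 to 4.27) were near background. Lists of energy metabolism had medians near 0. Of 34 genes of oxidative phosphorylation 8 rose (23.5%) and 2 fell (5.88%), with a median of 0.02, beside 19.9% and 24.7% of all genes. Of 27 of glycolysis and the hypoxia response 11 rose (40.7%) and 5 fell (18.5%), with a median of 0.07. Among the latter Pfkm, the muscle phosphofructokinase, was up by 0.65 ± 0.11.

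Of 23 immediate early genes 6 rose and 6 fell (26.1% each), shares near the 19.9% and 24.7% of all genes. Fosl1, a partner of Jun in AP-1, had 7.02, 7.00, 6.89, 6.73 and 6.67 at day 7 and 4.98, 5.47, 5.49, 5.40 and 5.64 at day 14, a change of -1.47 ± 0.15. Klf2, a Krüppel-like factor, fell by 1.44 ± 0.15, and Klf4, which represses smooth muscle genes, by 0.82 ± 0.12. Among 13 clock genes 3 rose (23.1%) and 1 fell (7.69%), so fewer were called than over all genes (30.8% beside 44.6%). Dbp, an output gene of the clock, was up by 0.92 ± 0.12. Ifitm3, an interferon-induced membrane protein, rose by 0.96 ± 0.09. Of 24 inflammatory genes 7 rose (29.2%) and 5 fell (20.8%), beside 19.9% and 24.7% of all genes. The rise of Lbp, the lipopolysaccharide-binding protein (0.59 ± 0.24, adjusted p = 0.043), was lost in 12 of 27 other settings, among them those without day 7 replicate 2, 4 or 6 or day 14 replicate 1, 2 or 3 (0.40 to 0.60, adjusted p from 0.056 to 0.17).

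Markers of other cell types were mostly near background. Of 13 endothelial markers on the array 3 passed the filter, of 12 epithelial ones 2, of 14 macrophage ones 1, of 10 adipocyte ones 1 and of 12 Schwann cell and neuron ones 3. Pecam1, Epcam, Cdh1, Ptprc, Adipoq, Sox10 and Tubb3 were among those that did not pass. Those that rose were Krt8, a simple keratin (0.46 ± 0.08), Slc2a4, the insulin-regulated glucose carrier that muscle also uses (1.25 ± 0.14), Map2 (0.26 ± 0.08) and Scg2. The call of Map2 was lost without the 3 arrays that stood apart (0.23, adjusted p = 0.055). Those that fell were Egfl7, an endothelial secreted protein (-0.46 ± 0.13), and Krt14, a basal keratin near background (-0.29 ± 0.08, or -0.19 with an adjusted p of 0.058 under median centring). Of 14 fibroblast markers 8 passed and 4 of those rose (50%, beside 19.9% of all genes), Thy1 by 0.89 ± 0.09. Several of these markers are also made by smooth muscle cells. The part of other cells in the changes above was not tested.

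The same week was also compared between media. Both comparisons below share the sufficient arrays, so they are not independent of each other. In deficient medium the time change differed from that in sufficient medium for 0 of 9093 genes in limma, although 905 had an unadjusted p under 0.05 against 455 by chance, and other settings gave 0 to 65 genes. The smallest adjusted p was 0.0506. Hecw2, a ubiquitin ligase, fell by 1.21 ± 0.14 in sufficient medium and was at -0.11 in deficient medium, a difference of 1.10 (adjusted p = 0.051). Txnip, which binds thioredoxin and restrains glucose uptake, had a difference of -1.07 (adjusted p = 0.051). In the median, mitosis genes fell by 2.00 in deficient medium beside 1.87 in sufficient medium. Skeletal and cardiac muscle genes rose by 0.79 beside 0.86. A p that misses the threshold does not show that the media acted alike.

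In excess medium the time change differed for 1677 genes (18.4%), with 1252 (13.8%) more positive and 425 (4.67%) more negative than in sufficient medium. Median centring turned this split to 690 and 922, and quantile normalization gave 823 and 635. The excess day 14 arrays had beta-actin differences of 1.40 to 2.80, beside 1.43 to 1.82 in sufficient medium, and 3 of the 5 lay above that range, and with that difference as a covariate 1072 genes passed. Mitosis genes fell less, with a median of -0.63, and 33 of the 35 had a called difference, all 33 positive. Plk1 was at 8.19 ± 0.18 (SD, n = 4) at day 7 in excess medium and at 7.27 ± 0.24 (n = 5) at day 14. In sufficient medium its day 14 arrays were at 5.21 to 5.54, so the media differed at day 14 more than at day 7, and the difference of the changes was 1.54 ± 0.16 (adjusted p = 2.8e-09). Kif20a was at 9.22 ± 0.31 and 9.14 ± 0.13 in excess medium and differed by 2.13. In replication genes 29 of 36 had a positive difference.

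Individual genes differed in either direction. Mgp rose by 5.45 in excess medium, from 4.69 ± 0.43 to 10.14 ± 0.10, which was 1.53 ± 0.18 more than in sufficient medium. Txnip was the gene of the highest difference. Its values in sufficient medium were 5.38, 5.76, 5.33, 5.18 and 5.25 at day 7 and 4.94, 5.33, 5.42, 5.44 and 5.01 at day 14, which overlap, while in excess medium it went from 5.93 ± 0.34 to 8.20 ± 0.29, a difference of 2.42. Prnd, which encodes the prion-like protein doppel, had 9.68, 9.76, 9.82, 9.92 and 9.71 and then 11.56, 11.33, 11.21, 11.41 and 11.29 in sufficient medium. It rose there by 1.59 ± 0.10 with no overlap, but stood at 9.44 ± 0.24 and 9.01 ± 0.24 in excess medium, a difference of -2.01 (adjusted p = 7.5e-13). Tnnt1 rose by 0.85 in excess medium against 2.54, and 10 of the 27 skeletal and cardiac genes had a negative difference and 3 a positive one. Col6a3, Emilin1 and Idi1 had differences of 1.37, 1.07 and 1.41.

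**Figure D4:**
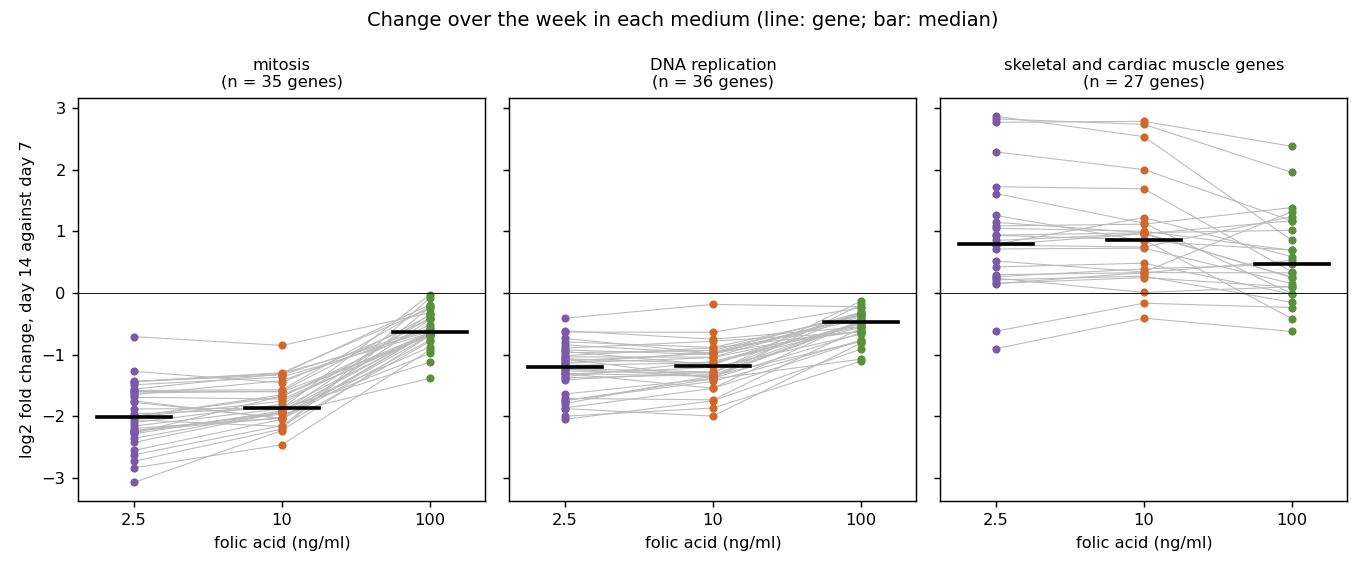
Log2 fold change of day 14 against day 7 in medium with 2.5, 10 and 100 ng/ml folic acid for the measured genes of 3 lists, with a line for each gene and a bar for the median. Mitosis genes have medians of -1.87 at 10 ng/ml and -0.63 at 100 ng/ml, DNA replication genes -1.20, -1.19 and -0.48, and skeletal and cardiac muscle genes 0.79, 0.86 and 0.47.

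The step from day 7 to day 14 also differed from the next one, day 14 to day 21, in the same medium. The day 14 arrays enter both steps, so a gene with a high error at day 14 can appear to turn. The steps differed for 1740 genes (19.1%), 1048 (11.5%) with a more positive and 692 (7.61%) with a more negative second step, and median centring turned the split to 715 and 1133. All 35 mitosis genes had a positive difference, since their median was -0.50 in the later week after -1.87. Plk1 averaged 5.01 at day 21, a further change of -0.36, and Creld2 averaged 8.06, a change of 0.09. The rise of Mgp went on to 11.45 ± 0.13 (SD, n = 5) at day 21, by 2.32, a step 1.59 smaller than the earlier one. Scg2 rose by 2.50 in both weeks, with a difference of 0.00 ± 0.17.

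Other genes changed mainly in the later week or turned. Id1 fell by 0.36 and then by 2.15, and Atoh8 by 0.46 and then by 2.70, differences of -1.79 and -2.24. Id2, a relative of Id1, was at -0.32 between day 7 and day 14 without passing (adjusted p = 0.084), and reached 8.83 at day 21. Prss35, a serine protease-like protein, had 7.79, 7.69, 9.01, 9.12 and 9.12 at day 7 and 9.58, 9.44, 9.84, 9.27 and 9.57 at day 14, and averaged 7.52 at day 21. Its rise of 0.99 ± 0.26 rested on a low pair of day 7 arrays, and without them it was 0.46 (adjusted p = 0.15). Prnd averaged 11.40 at day 21, a change of 0.04 from day 14.

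**Figure D5:**
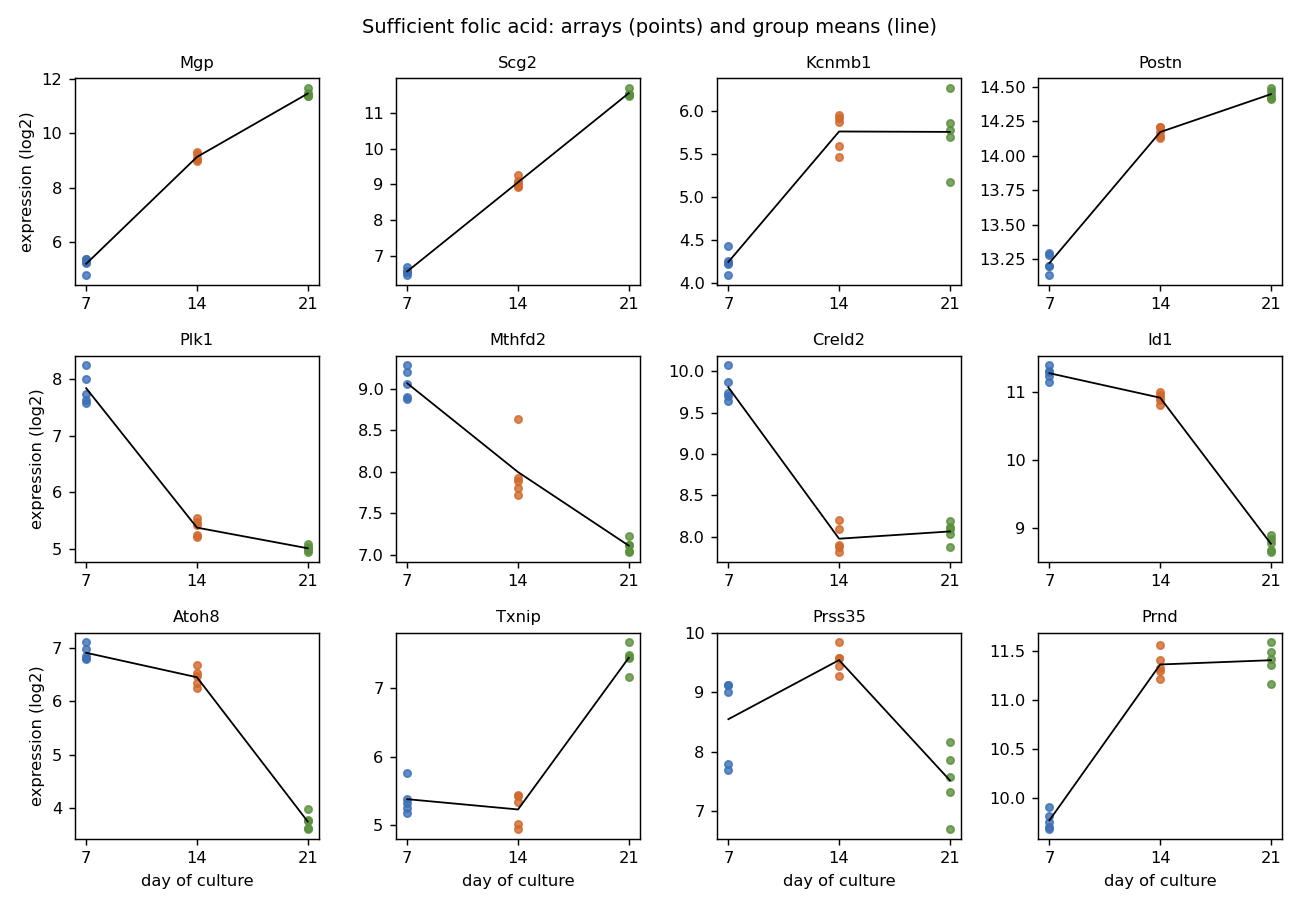
Log2 expression of 12 genes at days 7, 14 and 21 in sufficient medium, with points for arrays (5 per day), lines through group means and a separate vertical scale for each gene. Mgp, Scg2 and Postn rise at both steps, Plk1 falls mainly at the earlier step and Creld2 at that step alone, and Id1, Atoh8 and Txnip change mainly between day 14 and day 21.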

How the data were processed

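The table deposited by the authors holds log2 values of 31099 probe sets on 43 arrays, and the submitters' processing notes name GCRMA and limma. GCRMA corrects background and normalizes between arrays, so small shifts depend on scaling. For each gene, 1 probe set stood in, namely that of highest average across the 43 arrays among 20832 with 1 gene symbol in GEO's platform annotation, and 9831 had none. Of 14217 genes, 9093 had a log2 value above 4 in at least 4 arrays. Genes near background on one day can pass through the groups where they are high, so list counts are descriptions. No 2 arrays were identical.

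limma 3.58.1 (R 4.3.3) fitted 9 group means, with Benjamini-Hochberg adjustment over the 9093 genes and a threshold of 0.05. Tested on simulated data, it recovered 78 of 100 genes changed by 0.5 log2 and 99 of 100 changed by 1, with 4 false calls. The simulated noise was independent between genes and arrays, few genes were changed and no arrays shared a shift. These rates therefore need not hold for the real arrays. Alternatives were other scalings, filters, probe set rules, covariates, weights, a replicate block and leaving out arrays.

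The members and gene lists were chosen with earlier results of these data known. Genes were named as the 12 highest and 12 lowest, up to 4 per list, the leading differences between media and weeks, and defining smooth muscle and folate genes. Tgfb1, Itga5, Pfkl, Pola2, Cdkn1a, Vcan, Col1a1, Col1a2, Aldh1l1, Atf4, Ddit4, Hspa5, Abca1, Abcg1, Npc2, Ctsz, Tfeb, the pocket proteins and the subunits and subsets named as such were added after their values were seen. Figures used Python 3.11.15 and matplotlib 3.10.9.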

Additional observations from a re-analysis of the deposited data

Results flagged for a closer look

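In 396 groups of 5 arrays (198 genes at 2 days), 25 held an array far from the other 4, where chance marks about 5%, or 1 in 20. The marked array was day 7 replicate 6 in 14 cases, which is also 1 of the 3 arrays that stood apart. Its log2 values were 4.80 for Mgp, 8.18 for Pole, 6.82 for Mef2d and also 6.82 for Hspb7, 13.56 for Acta2 and also for Col1a1, 14.16 for Col1a2, and 5.72 for Eln. They were 12.45 for Igfbp7, 8.12 for Pfas, 5.58 for Tgfb1, 5.27 for Itga5, 5.87 for Pfkl and 9.48 for Glb1. Day 7 replicate 5 was marked for Myl4 at 6.93 and Scd2 at 7.65, and day 7 replicate 2 for Krt8 at 7.63. Day 14 replicate 4 was marked for Inhba at 10.16, Mthfd2 at 8.64, Igfbp2 at 4.84 and Tfeb at 3.80. Day 14 replicate 1 was marked for E2f7 at 4.91 and Serpine2 at 11.26, replicate 2 for Cnn1 at 11.04 and replicate 5 for Hells at 9.39.

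The time change differed between excess and sufficient medium by the interaction term in limma for 77 of the 198 genes, 54 with a positive and 23 with a negative difference. The genes named include some chosen for that difference, so this share is no test. Values are log2, excess minus sufficient medium. Among genes of division and chromatin the differences were Pcna 0.40, Dnmt1 0.58, Uhrf1 0.60, Rfc5 0.60, Mcm2 0.63, Hells 0.68, Mcm7 0.73, Mcm5 0.76, Foxm1 0.77, C9h6orf141 0.83, Pole 0.84, Ezh2 0.88, Lmnb1 0.91, E2f8 0.97, E2f7 0.97, Rfc2 1.12, Fancd2 1.13, Chaf1a 1.16, Orc1 1.18, Exo1 1.21, Aurka 1.28, Pttg1 1.37, Blm 1.46, Plk1 1.54, Cdc20 1.54, Melk 1.60, Plk4 1.78, Cdca3 1.93 and Kif20a 2.13. Among muscle genes they were Tnnt1 -1.68, Myh3 -0.83, Myl4 -0.78, Tagln -0.32, Mef2a 0.31 and Pln 0.88. Matrix and phosphate genes gave Prelp -1.08, Slc20a2 -0.43, Serpine2 0.47, Col14a1 0.98, Emilin1 1.07, Col6a3 1.37 and Mgp 1.53. Signalling genes and their regulators gave Pdgfc -1.62, Edn1 -1.14, Atoh8 -0.76, Id1 -0.61, P2ry6 -0.54, Igfbp5 -0.39, Rbpj 0.45, S1pr3 0.46, Inhba 0.52, S1pr1 0.58 and Notch1 0.75. For genes of metabolism, stress and ribosome assembly they were Nqo1 -0.70, Phgdh -0.66, Tfrc -0.64, Atf4 -0.56, Srxn1 -0.51, Npc2 -0.22, Umps 0.27, Fbl 0.32, Mthfd1 0.52, Pfas 0.58, Sqle 0.62, Creld2 0.78, Scd2 0.81 and Idi1 1.41. The other genes gave Prnd -2.01, Phlda1 -1.67, Lbp -1.49, C10h16orf89 -1.47, Mdm2 -0.58, Nr1d2 0.44, Map2 0.46, Klf2 0.60, Pcdh18 1.46 and Txnip 2.42.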

How the results depend on the processing

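The medians of the 43 arrays lay between 3.658 and 3.725, but the values were already normalized, so the medians could not show a technical limit. Values near or below 4 on the log2 scale are close to background, and 5 arrays a group limit the precision of small changes. The number of genes that changed between day 14 and day 7 stayed within 1.5 times the main 4057 in each setting tried, and leaving out 1 array at a time gave 3704 to 3934. It was 4062 with the beta-actin covariate and 3315 without the 2 day 7 arrays of highest beta-actin difference. Of the 198 genes checked here 182 passed the threshold, 155 of them in each of 27 settings, 27 were lost in at least 1 and 8 others were gained in at least 1. Of the list medians 1106 values over the settings moved by less than the spread between arrays and 108 moved by more. The median of the insulin-like growth factor list turned from 0.04 to -0.02 without day 7 replicate 5 and reached 0.08 without day 7 replicate 1. Medians near 0 also changed sign in some settings for the Id, Notch, heat shock, oxidative phosphorylation, immediate early, circadian and iron lists. Itga5 turned from -0.07 to 0.30 with the 3 arrays as a covariate. The cause was not tested.

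For the difference between deficient and sufficient medium, 0 genes passed and other settings gave 4 (quantile normalization, and median centring), 2 (mean over probe sets, and trend and robust), 1 (array series as covariate) and 65 (array weights). Settings added after seeing the data gave 8 without the 2 day 7 arrays of highest beta-actin difference and 4 without the 3 arrays that stood apart. Leaving out 1 array at a time gave 0 to 6, the highest without deficient day 7 replicate 1, and 5 without sufficient day 14 replicate 5. For excess medium the count of 1677 became 1116 with only the groups compared, 2648 with array weights and 1072 with the beta-actin covariate, and 1222 to 2019 without 1 array. For the later week 1740 became 2763 with array weights, and 1271 to 1862 without 1 array.

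With the replicate number as a block, 3954 genes changed over time, 1761 higher and 2193 lower, and with the block and only the groups compared 3140, and 1089 for the excess difference. The deviations of arrays of the same number correlated with r of 0.38, 0.28, -0.32 and -0.08. The values of -0.32 and -0.08 are those of day 14 replicates 4 and 5, which stood apart on the second component. The correlations therefore cannot decide whether the numbers pair the arrays.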
